A study of Mus musculus with 8 samples.

Results

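IRS1 and IRS2 are removed from cells by the ubiquitin-proteasome system, and the genes examined here encode the ubiquitin ligases, or subunits of them, that have been reported to act on the IRS proteins. The list holds 8 genes, *Cul7*, *Fbxw8*, *Rbx1*, *Stub1*, *Cblb*, *Mdm2*, *Nedd4*, and *Socs1*, which were chosen by name, with earlier results of these data known. All 8 were among the 21532 genes of the liver RNA-Seq table, and all 8 passed the filter on low values that left 15989 genes for testing. RNA-Seq was performed on whole liver of 8 male db/db mice, a diabetic strain whose leptin receptor is defective. The mice were 8 weeks old when treatment began. For 5 weeks they received 5 mg/kg of either control (n = 4) or AF1 peptide (n = 4) 2 times a week by retro-orbital injection. AF1 peptide is a synthetic peptide designed from the N-terminal part of estrogen receptor α (ERα), with stretches of the receptor sequence left out. It carries a FITC-labelled TAT sequence, a short stretch that carries a cargo into cells. The composition of the control injection is not given in the sources used here, and every mouse of both groups was db/db, so no lean mice stand beside them.

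Ubiquitin ligases are the enzymes that choose which protein receives ubiquitin. IRS1 and IRS2 are the adaptor proteins that carry the signal of the insulin receptor to PI3K and AKT, and in hepatocytes this signal lowers glucose output. A cullin-RING ligase is built around a cullin scaffold: the RING protein RBX1 recruits the charged ubiquitin-conjugating enzyme, and an F-box protein holds the substrate. CUL7 uses FBXW8 as its F-box protein. STUB1 (CHIP) is a U-box ligase that works with the chaperones HSP70 and HSP90. CBLB and MDM2 are RING ligases, NEDD4 is a HECT ligase that takes ubiquitin onto its own cysteine before passing it on, and SOCS1 is a cytokine-induced adaptor whose SOCS box joins an elongin and cullin-5 ligase. The study gave AF1 peptide to obese and diabetic mice to learn how it acts on their glucose control, and it examined the ubiquitination of IRS1 separately, in cultured cells. It also reported more IRS1 protein in db/db livers with AF1 peptide, a protein measure that the RNA values here do not address. The comparison below asks whether the RNA of these ligases differed between the groups. RNA levels do not report on the amount or activity of the ligase proteins.

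None of the 8 ligase genes passed the test between AF1 peptide and control livers (0 of 8 with an unadjusted p value under 0.05 in limma, and 0 of 8 in an exact permutation test). Over all tested genes 990 of 15989 (6.19%) had such a p value and 0 (0%) had an adjusted p value under 0.05 in limma or edgeR, against 3 in DESeq2, and the unadjusted counts of edgeR and DESeq2 were 1036 and 1008. The median log2 fold change of the 8 genes was -0.0043, beside -0.0083 for all tested genes. The median size of the change, without its sign, was 0.03 for the 8 genes and 0.14 for all tested genes, and 6 of the 8 lay below the latter value. The 8 genes were not set against genes of like level, so these sizes are not compared like for like. The AF1 peptide mean was above the control mean on the log2 scale for 3 of the 8 genes and below it for 5. Among all tested genes it was above for 48.2%. For none of the 8 were the values of the groups separate, which was the case for 3.9% of all tested genes.

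Libraries held 23031880 to 45117528 reads, and the totals were compared between groups (exact permutation test, two-sided, p = 0.686, where the smallest possible p is 0.0286), and mitochondrial genes took 20.8% to 37.8% of the reads (p = 0.4). AF1 peptide replicate 1 stood apart from the other 7 mice. On the first principal component, which held 39.3% of the variance, it lay at 74.2 and the others between -21.8 and 2.33. Its summed hepatocyte markers (*Alb*, *Apoa1*, *Ttr*, *Serpina1a*, and *Fabp1*, 5 of 5 in the table) were 1660500 normalized counts, beside 2588620 to 2683710 in controls and 2291760 to 2705120 in the other AF1 peptide mice. Its summed macrophage markers (6 of 6) were 1980, against 4046 to 4855 in controls and 4605 to 4840 in the other AF1 peptide mice. Summed T cell markers (7 of 7) ran from 63.5 to 143 in controls and from 74.9 to 110 with AF1 peptide. No defining marker of these cell types was absent from the table. In whole liver, fewer cells of a type and less RNA per cell cannot be told apart, and the part of these shifts in the values below was not tested.

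**Figure D1:**
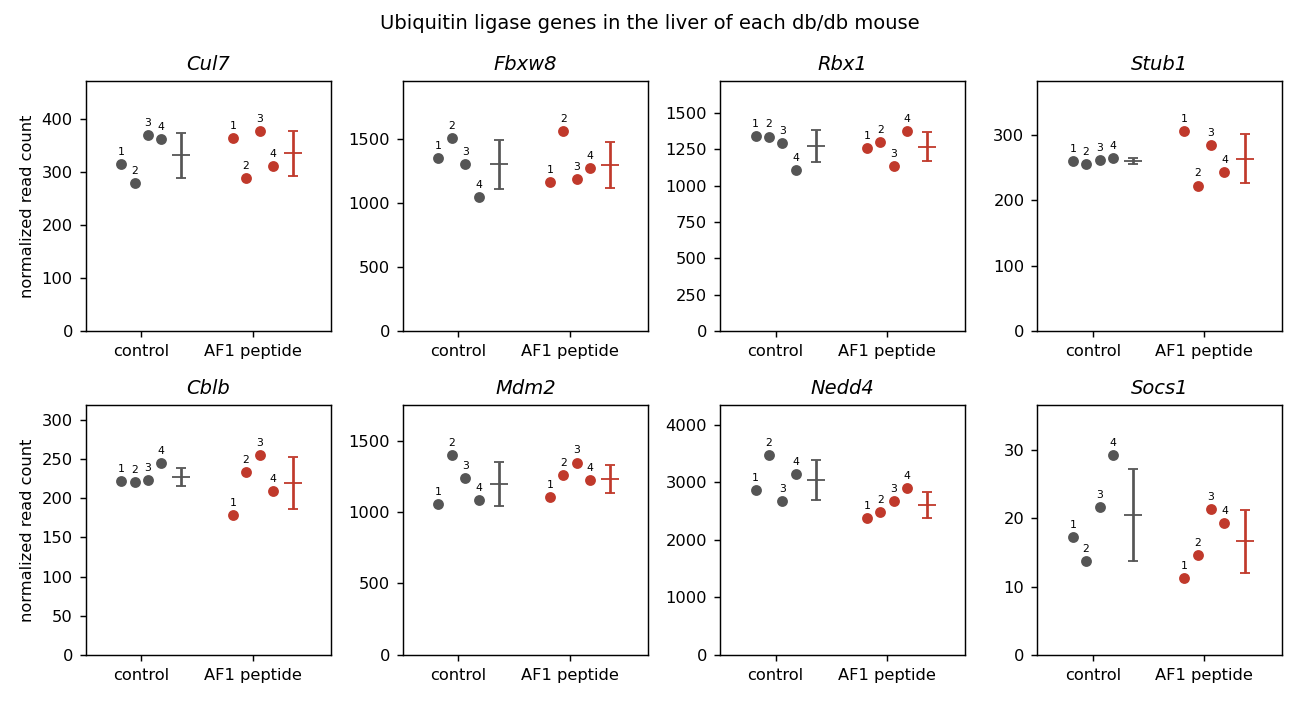
Normalized read counts of the 8 ligase genes (vertical axis, from 0) in control (grey) and AF1 peptide (red) livers. Each point is a mouse with its replicate number, and the bar beside it gives the mean ± SD (n = 4); the groups overlap for all 8 genes, and AF1 peptide replicate 1 is the lowest of 8 mice for *Cblb*, *Nedd4*, and *Socs1* and the highest for *Stub1*.

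To see how abundant the transcripts of the ligases are relative to each other, normalized counts were divided by the exon length of each gene. This length joins the exons of all annotated transcripts (4551 bases for *Rbx1*, 2561 for *Stub1*). It can exceed the length of the RNA made in liver, and the levels and their order depend on it. The levels per kilobase fell into a high group and a graded low group. *Rbx1* (279 normalized counts per kb), *Nedd4* (257), *Mdm2* (239), and *Fbxw8* (235) were close together, between the 74.9th and the 77.7th percentile of tested genes. Neighbours among these 4 changed places between mice: *Rbx1* exceeded *Nedd4* in 6 of 8 mice, *Nedd4* exceeded *Mdm2* in 5, and *Mdm2* exceeded *Fbxw8* in 6. Below them the order was the same in 8 of 8 mice. Each gene has the same length in every mouse, so this count does not test the lengths. *Fbxw8* was 2.33-fold above *Stub1* (102 per kb), *Stub1* 2.28-fold above *Cul7* (45.1 per kb), *Cul7* 2.14-fold above *Cblb* (21.3 per kb), and *Cblb* 3.54-fold above *Socs1* (6.38 per kb, at the 8.46th percentile). The substrate genes lay in the lower range, with *Irs1* at 28.7 and *Irs2* at 38.4 per kb.

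The cullin-7 ligase was examined first. The scaffold gene *Cul7* had normalized counts of 316, 281, 371, and 363 in control replicates 1 to 4 and of 366, 289, 378, and 312 in AF1 peptide replicates 1 to 4. The ranges almost coincided, and the log2 fold change was 0.02 (SE 0.13, 95% interval -0.28 to 0.31, exact permutation p = 0.80, limma adjusted p = 0.985). *Fbxw8*, which encodes the substrate-binding F-box subunit, had normalized counts of 1351, 1510, 1305, and 1048 in controls and of 1165, 1562, 1188, and 1276 with AF1 peptide. Its highest value was an AF1 peptide mouse and its lowest a control, and the groups otherwise overlapped (log2 fold change -0.0040, SE 0.13, 95% interval -0.30 to 0.30, adjusted p = 0.996). As a percent of the control level, the interval of *Cul7* ran from -17.7% to 24.2%, and that of *Fbxw8* from -18.9% to 22.7%.

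*Rbx1*, the RING subunit that cullin-7 shares with most other cullins, had normalized counts of 1345, 1338, 1292, and 1111 in controls and of 1256, 1299, 1137, and 1376 with AF1 peptide. It had the narrowest interval of the 8 genes (log2 fold change -0.0046, SE 0.10, 95% interval -0.23 to 0.22, adjusted p = 0.995), which ran from -14.6% to 16.3%. The highest and the lowest mouse again came from opposite groups. Reads of *Rbx1* are partly shared with its pseudogene *Rbx1-ps*: 3.50% of the 50-base words of its exons also occur in that gene. For the other members this share was at most 1.21% (*Mdm2*), and for *Cul7* it was 0.414%, in the related *Cul9*.

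The 2 subunits that must meet in 1 ligase did not keep a fixed proportion of RNA across mice. The ratio of *Fbxw8* to *Cul7* per length was 5.74, 7.21, 4.72, and 3.87 in controls and 4.27, 7.26, 4.21, and 5.48 with AF1 peptide, which gives 5.39 ± 1.44 and 5.31 ± 1.43 (SD, n = 4; exact permutation test, two-sided, p = 0.943). Mice with more *Cul7* RNA tended to have less *Fbxw8* RNA in both groups. Over the 8 mice Pearson's r was -0.83 (exact permutation p = 0.0112, adjusted p = 0.307 over the 28 pairs of ligase genes) and Spearman's rho was -0.64 (exact permutation p = 0.0962, adjusted p = 0.385). Without the 2 mice farthest from the median of *Cul7*, r was -0.55. With the group means removed, the pooled r within groups was also -0.83 (exact permutation within groups, two-sided, p = 0.0174), a value for this pair alone that was not adjusted. Over the 28 pairs the relation did not pass the adjustment. By Pearson's r 3 of the 28 pairs had an unadjusted p under 0.05 and 0 an adjusted one, the other two being *Cul7* with *Stub1* (r = 0.73, rho = 0.81, exact permutation p = 0.0326 and 0.0218) and *Fbxw8* with *Rbx1* (r = 0.72, rho = 0.64, exact permutation p = 0.0461 and 0.0962). By Spearman's rho 3 of the 28 pairs also had an unadjusted p under 0.05 and 0 an adjusted one: *Cul7* with *Stub1*, *Fbxw8* with *Stub1* (rho = -0.79, exact permutation p = 0.0279), and *Rbx1* with *Stub1* (rho = -0.74, exact permutation p = 0.0458).

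**Figure D2:**
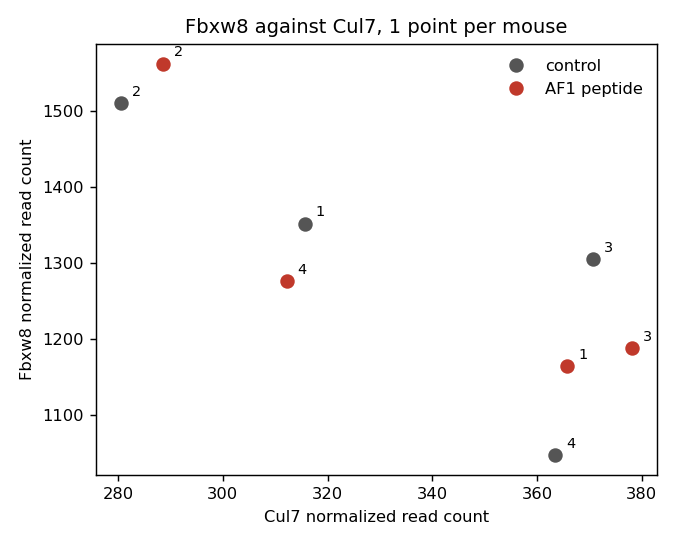
Normalized read count of *Fbxw8* (vertical axis) against that of *Cul7* (horizontal axis), 1 point per mouse with its replicate number, control grey and AF1 peptide red; neither axis starts at 0. Replicate 2 of each group has the least *Cul7* and the most *Fbxw8*, and Pearson's r of the log2 values is -0.83 over 8 mice.

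*Stub1*, the chaperone-bound U-box ligase, had normalized counts of 260, 255, 262, and 265 in controls and of 306, 223, 284, and 243 with AF1 peptide. The coefficient of variation was 1.65% in controls and 14.3% with AF1 peptide, beside medians over all tested genes of 13.3% and 18.1%, and the difference in spread was not tested. Counting error alone gives each control value a coefficient of variation of 5.62% to 6.43%, so the 4 controls lay closer together than their read numbers can resolve. Of the AF1 peptide mice 2 lay above and 2 below every control, so the means were close (log2 fold change 0.0081, SE 0.12, 95% interval -0.26 to 0.28, adjusted p = 0.993). On the exons of *Stub1*, 42.3% of the bases are also covered by *Jmjd8* on the opposite strand or *Mir3082*, and whether reads were counted by strand is not given in the sources used here. The same holds for *Fbxw8*, where 33.4% of the exon bases lie over *Gm9754* on the opposite strand.

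*Cblb*, a RING ligase best known as a brake on lymphocyte activation, had normalized counts of 222, 221, 223, and 245 in controls and of 178, 234, 255, and 209 with AF1 peptide. The lowest and the highest mouse were both AF1 peptide mice (log2 fold change -0.06, SE 0.13, 95% interval -0.36 to 0.23, exact permutation p = 0.629, adjusted p = 0.931). The mouse with the least *Cblb* was AF1 peptide replicate 1, the library with the lowest summed hepatocyte and macrophage markers. Its summed T cell markers were 110 normalized counts, beside 74.9 to 101 in the other AF1 peptide mice and 63.5 to 143 in controls. The part of any of these cells in the *Cblb* value was not tested. Without that mouse the log2 fold change was 0.03 (adjusted p = 0.947).

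*Mdm2*, which is best known as the ligase and transcriptional target of p53, had normalized counts of 1059, 1400, 1238, and 1087 in controls and of 1108, 1257, 1346, and 1221 with AF1 peptide. All 4 AF1 peptide values lay inside the range of the controls (log2 fold change 0.05, SE 0.11, 95% interval -0.20 to 0.30, exact permutation p = 0.657, adjusted p = 0.937). *Trp53* itself had normalized counts of 739 ± 79.6 in controls and 710 ± 63.0 with AF1 peptide (SD, n = 4, log2 fold change -0.06, adjusted p = 0.926).

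*Nedd4*, the HECT ligase, had the smallest p value of the 8 genes. Its normalized counts were 2858, 3478, 2675, and 3138 in controls and 2381, 2479, 2681, and 2893 with AF1 peptide. AF1 peptide replicates 1 and 2 lay below every control, whereas replicates 3 and 4 lay within the control range. The means were 3037 ± 350.1 and 2608 ± 227 (SD, n = 4), a log2 fold change of -0.22 (SE 0.11, 95% interval -0.46 to 0.03, exact permutation p = 0.143, limma adjusted p = 0.763). The interval ran from -27.3% to 1.90%. Over all the alternatives run, *Nedd4* passed the unadjusted limma threshold only when control replicate 3, the lowest control, was left out (log2 fold change -0.28, adjusted p = 0.710), in a fit that called 6.97% of all tested genes. Without AF1 peptide replicate 1 the value was -0.17 (adjusted p = 0.612).

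*Socs1*, whose product is induced by cytokines through STAT proteins, was the scarcest of the 8 transcripts. Its normalized counts were 17.3, 13.8, 21.6, and 29.3 in controls and 11.2, 14.6, 21.4, and 19.3 with AF1 peptide. The AF1 peptide range lay lower but overlapped the control range in 3 of 4 mice (log2 fold change -0.27, SE 0.32, 95% interval -0.98 to 0.43, exact permutation p = 0.429, adjusted p = 0.861). These values rest on 8 to 35 reads a library: the 8 reads of AF1 peptide replicate 2 give an exact 95% Poisson interval of 6.31 to 28.8 normalized counts, which covers counting error only. The interval of the difference ran from -49.4% to 34.9%, and changes within it were not excluded at this depth and number of mice.

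**Figure D3:**
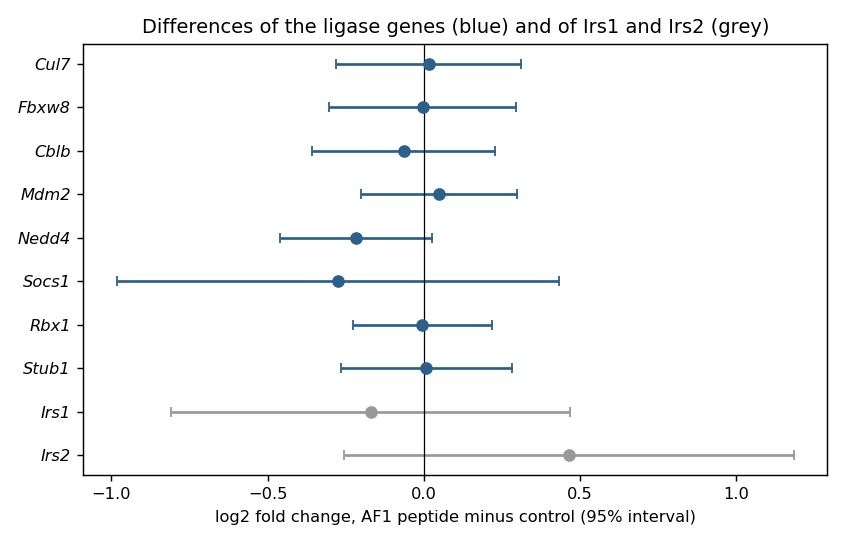
Log2 fold change (AF1 peptide minus control, horizontal axis) with its 95% interval from limma for the 8 ligase genes (blue) and for *Irs1* and *Irs2* (grey), 4 mice a group. Each interval includes 0, *Nedd4* comes nearest to leaving it out, and the interval of *Socs1* is the widest of the ligase genes.

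The promoters of *Nedd4* and *Socs1* are shown because these 2 genes had the largest fitted changes of the 8, although neither passed the test. RefSeq promoter entries (build GRCm38.p6) were found for 7 of the 8 genes, with 2 start sites for *Nedd4*, which makes 8 windows of the 250 bases before a start. Capitals mark the GC box (GGGCGG), the CCAAT box (CCAAT), the STAT motif (TTCNNNGAA), and a repeat bound by interferon regulatory factors (GAAANNGAAA), each searched on both strands. The interferon repeat was added after the sequences had been seen. The first window of *Nedd4* lies at chr9:72662081-72662330 (plus strand), the second at chr9:72693048-72693297 (plus strand), and that of *Socs1* at chr16:10785537-10785786 (minus strand).
Nedd4 first start: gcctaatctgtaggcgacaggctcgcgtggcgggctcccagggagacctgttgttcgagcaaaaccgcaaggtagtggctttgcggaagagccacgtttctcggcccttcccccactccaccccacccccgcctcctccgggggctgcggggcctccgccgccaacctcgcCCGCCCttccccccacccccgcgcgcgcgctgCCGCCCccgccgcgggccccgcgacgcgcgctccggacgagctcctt
Nedd4 second start: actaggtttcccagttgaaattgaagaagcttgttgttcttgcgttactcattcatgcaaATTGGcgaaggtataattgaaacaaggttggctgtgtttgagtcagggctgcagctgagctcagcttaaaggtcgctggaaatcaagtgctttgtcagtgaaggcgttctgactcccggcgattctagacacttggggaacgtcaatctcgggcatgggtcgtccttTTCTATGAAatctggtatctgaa
Socs1: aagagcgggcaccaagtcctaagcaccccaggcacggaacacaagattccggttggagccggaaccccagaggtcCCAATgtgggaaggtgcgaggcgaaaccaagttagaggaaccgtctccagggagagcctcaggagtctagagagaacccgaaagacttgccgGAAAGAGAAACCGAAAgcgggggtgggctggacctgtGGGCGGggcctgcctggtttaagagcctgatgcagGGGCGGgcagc
The first *Nedd4* window holds 2 GC boxes, and the second holds none but has 1 CCAAT box and 1 STAT motif. The *Socs1* window holds 2 GC boxes, 1 CCAAT box, and 2 overlapping matches of the interferon repeat. Over the 8 windows a GC box was found in 7 (32.7% of the 32851 mouse promoters in the table), a CCAAT box in 5 (33.8%), the STAT motif in 1 (7.02%), the interferon repeat in 1 (2.98%), and a TATA box (TATAAA) in 0 (12.4%). A match is a stretch of letters and not a measured binding site.

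The substrates were then set beside their ligases. *Irs1* had normalized counts of 316, 227, 243, and 278 in controls and of 474, 190.0, 166, and 203 with AF1 peptide. AF1 peptide replicate 1 was above all controls, and the other 3 AF1 peptide mice were below all controls. With all mice the log2 fold change was -0.17 (SE 0.29, adjusted p = 0.913). Without AF1 peptide replicate 1 it was -0.51 (SE 0.14, 95% interval -0.82 to -0.19, adjusted p = 0.452), with an unadjusted p under 0.05 in limma, in a fit that called 10.1% of all tested genes. On the exons of *Irs1*, 30.9% of the bases are also covered by *Gm9747* on the opposite strand. *Irs2* had normalized counts of 199, 201, 183, and 172 in controls and of 596, 197, 219.9, and 176 with AF1 peptide, with replicate 1 far above the other 7 mice. Its log2 fold change was 0.46 (SE 0.32, adjusted p = 0.789), and without that mouse 0.07 (SE 0.13, adjusted p = 0.884). AF1 peptide replicate 1 was outside the range of the other 7 mice for both substrate genes and for 4 of the 8 ligase genes. Without it 0 of 8 ligase genes had an unadjusted p under 0.05 in limma, and *Cul7* (-0.03), *Fbxw8* (0.04), *Cblb* (0.03), and *Stub1* (-0.07) changed sign around 0.

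**Figure D4:**
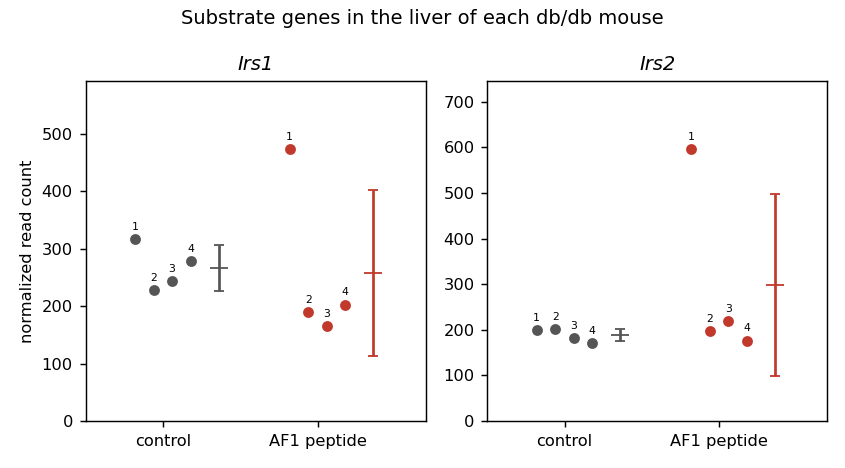
Normalized read counts of *Irs1* and *Irs2* (vertical axis, from 0) in control (grey) and AF1 peptide (red) livers, 1 point per mouse with its replicate number and mean ± SD (n = 4) at the side. AF1 peptide replicate 1 is at 474 for *Irs1* and 596 for *Irs2*, above the other 7 mice, and the other 3 AF1 peptide mice lie below all controls for *Irs1*.

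Genes that work with the ligases were examined in 13 lists by role. Of 99 genes outside the 8, 93 were tested, of which 0 were higher and 2 lower with AF1 peptide (2.15%, beside 6.19% of all tested genes), and their median log2 fold change was -0.03. Within the receptor list, *Grb10*, an adaptor that dampens insulin receptor signaling, was lower: 112, 127, 100.5, and 109 normalized counts in controls against 92.4, 51.1, 108, and 76.2 with AF1 peptide (log2 fold change -0.49, SE 0.22, exact permutation p = 0.0571, limma adjusted p = 0.763). One AF1 peptide mouse lay within the control range, and the unadjusted p, under 0.05 in limma, rose above it in 5 of 10 other settings, edgeR and DESeq2 among them, and in 6 of 8 fits that left out a mouse. *Insr*, the insulin receptor gene, was at 2405 ± 269 and 2556 ± 177 (SD, n = 4, adjusted p = 0.860). *Irs3* had 3.04 ± 2.04 and 10.9 ± 5.45 normalized counts and was below the filter.

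The partners of cullin-7 included 4 tested genes, of which 0 passed. *Skp1*, the adaptor between F-box proteins and cullins, had the smallest p value of the 4 tested partners. It had 3711, 4253, 2975, and 3246 normalized counts in controls and 2899, 3326, 2238, and 3166 with AF1 peptide (log2 fold change -0.29, SE 0.15, adjusted p = 0.763). Its unadjusted p came under 0.05 with equal totals in place of the deposited size factors, with the replicate block, and without control replicate 3. *Cul9*, the closest relative of *Cul7*, was at 484 ± 43.7 and 554 ± 71.4 (SD, n = 4, log2 fold change 0.19, adjusted p = 0.774). Among 12 genes for RBX1 partners and neddylation, the modification that switches cullins on, 0 passed and the smallest p value was that of the ubiquitin-conjugating enzyme gene *Ube2d2a* (log2 fold change -0.16). The 8 cullin scaffolds and 9 FBXW genes had 0 calls, with *Fbxw4* nearest in the latter (log2 fold change 0.20).

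Among the other ligases and adaptors reported to act on IRS proteins, 0 of 6 tested genes passed, with *Socs6* nearest (log2 fold change -0.19). *Socs3*, a cytokine-induced relative of *Socs1*, was at 250.3 ± 42.4 and 279 ± 102 normalized counts (SD, n = 4, adjusted p = 0.933). The deubiquitinases *Usp7* and *Usp9x*, which remove ubiquitin, had 0 of 2 calls (*Usp7* 0.07). In the NEDD4 family and its adaptors 0 of 10 passed, and 7 of the 10 had a log2 fold change below 0, *Nedd4* included. Among all tested genes 48.2% were above 0, and the direction of the family was not tested. In the CBL family 0 of 4 passed (*Cbll1* 0.18). In the SOCS family and its partners 0 of 12 passed, and in the interferon-γ and JAK-STAT genes around SOCS1 0 of 8 did, with *Il4ra* nearest (-0.25). For STUB1, 0 of 11 chaperones and partners passed (*Ube2v1* -0.25). Of the genes nearest to the threshold in these lists, leaving out AF1 peptide replicate 1 brought the unadjusted p under 0.05 for *Ube2d2a* (-0.21), *Fbxw4* (0.27), and *Ube2v1* (-0.34). Leaving out control replicate 3 did so for *Ube2v1* (-0.36), leaving out AF1 peptide replicate 3 (-0.32) or 4 (-0.31) did so for *Il4ra*, and so did equal totals for *Il4ra* (-0.34).

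The p53 list around MDM2 held the other call. *Eda2r*, a TNF receptor family gene induced by p53, had normalized counts of 36.3, 34.5, 41.1, and 32.7 in controls and of 8.40, 20.1, 14.8, and 31.2 with AF1 peptide. All AF1 peptide values lay below all control values, and the log2 fold change was -1.05 (SE 0.35, exact permutation p = 0.0286, the smallest possible, limma adjusted p = 0.763). It was lower in every fit that left out a mouse, from -1.34 to -0.74, with an unadjusted p under 0.05 in 8 of 8 fits. With at least 10 normalized counts asked of every mouse *Eda2r* was not tested, because AF1 peptide replicate 1 was at 8.40. Its counting error was not computed. The other 13 genes of the list did not pass, and 10 of the 14 had a log2 fold change below 0, with a median of -0.10. Among all tested genes 48.2% were above 0, and the direction of the list was not tested.

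**Figure D5:**
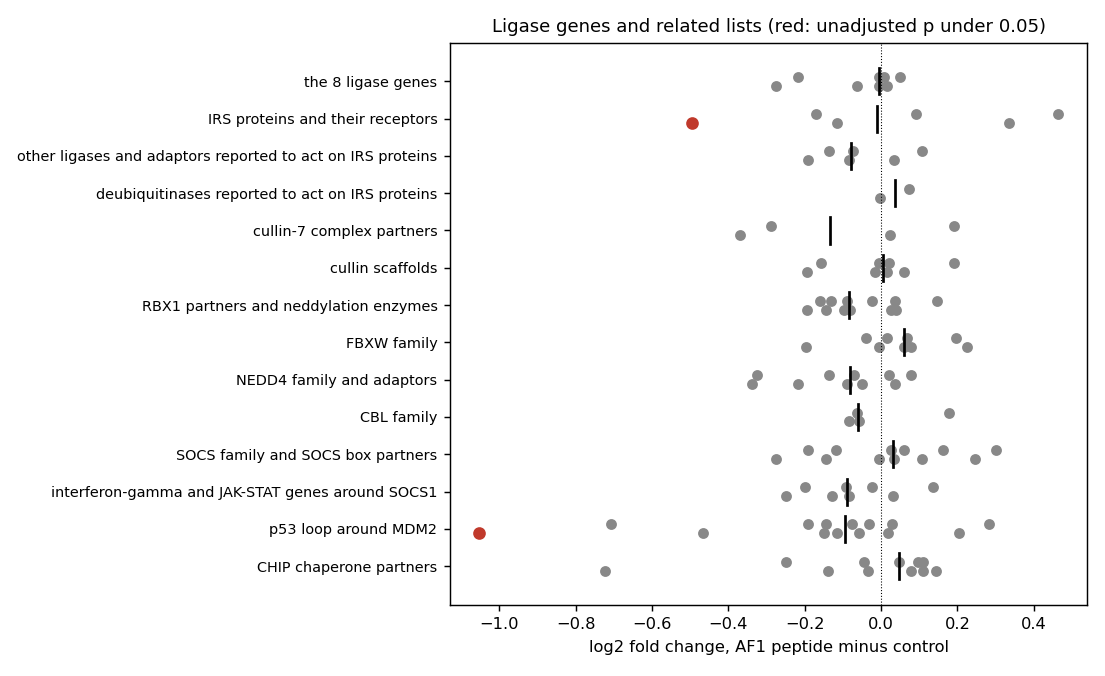
Log2 fold change (AF1 peptide minus control, horizontal axis) of each tested gene in the 8 ligase genes and the 13 related lists (rows); a point is a gene, a black bar is the median of its list, and red marks an unadjusted limma p under 0.05. The 2 red points are *Grb10* at -0.49 and *Eda2r* at -1.05; some genes stand in more than 1 list.

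The genes whose levels followed each ligase gene most closely over the 8 mice were found by Pearson's r among 12443 genes with a mean of at least 50 normalized counts. These are the highest of many correlations over 8 mice scaled in the same table, and they are given as a description. For *Cul7* they were *Vwce* (r = 0.99), *Sbf2* (0.97), and *Zfp408* (0.97), and for *Fbxw8* they were *Iqgap2* (0.98), *Rab9*, and *Vps25*. For *Nedd4* they were *Actb* (0.98), *Idi1-ps1* (0.97), and *Idi1* (0.97), and for *Stub1* they were *Dcaf6* (0.98), *Igfbp1*, and *Creb1*. *Cblb* was followed by *Itga4* (0.97), *Lrmp*, and *Fmnl1*, and *Socs1* by *Fgd6* (0.97), *Tmem181a*, and *Zfp62*. *Mdm2* was followed by *Map4k1* (0.95), *Gm39673*, and *Txnl4a*, and *Rbx1* by *Mrps33* (0.96), *Tmem70*, and *Cct8*. None of the 3 nearest genes of a ligase gene was another ligase gene, which so few ligase genes among 12443 genes made likely in advance. *Socs1*, with means of 20.5 and 16.6 normalized counts, was below the level asked and could not be a nearest gene.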

How the data were processed

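Stranded mRNA libraries were made from TRIzol-extracted liver RNA. The authors trimmed reads with Trim Galore 0.6.7, aligned them with HISAT2, sorted them with SAMtools 1.17, and counted them with GenomicAlignments; the processing notes name build mm39. Use of strand and of reads that match several genes is not given in the sources used here. The authors deposited normalized counts, a signal equal to reads divided by a size factor per library. Whole reads were recovered from it for 100% of 172256 values (tolerance 0.02 reads). Groups came from the sample labels, and no batch is named. Replicates of a group differed by more than sampling noise (chi-square per degree of freedom 16.1 to 344).

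The log2(normalized count + 1) was tested two-sided with limma 3.58.1 (R 4.3.3, intensity trend) over genes with a mean of at least 10, with Benjamini-Hochberg adjustment over all of them. A call is an unadjusted p under 0.05, the rule of the study's methods. Fold changes are on the log2(normalized count + 1) scale, which understates the change of low genes. Alternatives were 0.5 and 5 as pseudocount, no filter, at least 10 in every mouse, TMM factors, equal totals, no trend, a replicate block, edgeR 4.0.16 and DESeq2 1.42.0 on recovered reads, and leaving out each mouse. Single values were compared by exact permutation tests, which for single genes were added after seeing the data. Named are all 8 genes, Irs1, Irs2, in each related list the genes with p under 0.05 or else the smallest p, and the 3 most alike genes; Trp53, Insr, Irs3, and Socs3 were added after their values were seen. Members and lists were chosen with earlier results of these data known. Exon lengths, overlaps and shared 50-base words came from GENCODE M21, and promoters from RefSeq GRCm38.p6; both are of another build than the table, so they were matched by symbol. Markers of a further cell type, beyond the hepatocyte, T cell, macrophage, endothelial, and stellate cell lists, are not reported here. Intervals of 95% are limma's unless named.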

Additional observations from a re-analysis of the deposited data

Results flagged for a closer look

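In 58 groups of 4 mice, the gap between the extreme mouse and its neighbour was examined as a share of the group's range, and 6 were past the 95% limit of Dixon's test, where chance gives about 1 in 20, or 2.9. Among the ligase genes this held for Cblb, where control replicate 4, at 245 normalized counts, had a gap of 0.913 of the range above 3 controls between 221 and 223. AF1 peptide replicate 1 was the distant mouse for Irs1 (474 normalized counts, 0.879), Irs2 (596, 0.896), and Cul9 (661, 0.874). Control replicate 1 was low for Lyve1, an endothelial marker (142 normalized counts, 0.988), and had the highest total reads of its group (45117528, 0.857).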

How the results depend on the processing

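Over 18 alternatives for each of the 8 ligase genes (144 values), 1 p value was under 0.05, that of Nedd4 without control replicate 3, and 22 values changed sign. With equal totals in place of the deposited size factors, which moved the median of all tested genes to -0.10, Cul7 (-0.075), Mdm2 (-0.042), Stub1 (-0.083), and Usp7 (-0.018) changed sign. The count of ligase genes called was 0 higher in each alternative and 0 to 1 lower when a mouse was left out. All tested genes with an adjusted p under 0.05 numbered 0 except in DESeq2 (3). Those with an unadjusted one numbered from 540 (without control replicate 2) to 1608 (without AF1 peptide replicate 1) when a mouse was left out, and 1244 with the replicate block. Log2 fold changes ranged, over the fits without a mouse, from -0.063 to 0.086 for Cul7, -0.10 to 0.071 for Fbxw8, -0.14 to 0.031 for Cblb, -0.0060 to 0.13 for Mdm2, -0.068 to 0.046 for Rbx1, and -0.066 to 0.086 for Stub1. The shared replicate numbers name different mice. The deviations of same-numbered mice correlated at 0.24, 0.02, 0.22, and -0.06, and those of replicates 1 and 3 were the highest between the groups. In all, 4 of 8 mice correlated best with their own number, each out of 4 mice of the other group. Whether same-numbered mice shared more than a label was not tested. With the replicate block 0 of 8 ligase genes were called, the unadjusted p of Skp1 came under 0.05, and those of Grb10 and Dcn rose above it. With equal totals those of Skp1 (-0.38) and Il4ra (-0.34) came under it, and that of Grb10 (-0.58) rose above it. The causes of these shifts were not tested. Depth limits Socs1 most, at 8 to 35 reads a library, and 4 mice a group limit all intervals.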

Other observations

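Among the cell type markers, Adgre1 and Dcn had an unadjusted p under 0.05 in limma. Adgre1, a macrophage marker, had 61.0, 81.7, 45.4, and 85.4 normalized counts in controls and 27.1, 45.7, 50.3, and 48.7 with AF1 peptide (log2 fold change -0.66, SE 0.27, exact permutation p = 0.114, limma adjusted p = 0.763). The groups overlapped, and the unadjusted p rose above 0.05 without control replicate 2 (-0.56), control replicate 4 (-0.54), or AF1 peptide replicate 1 (-0.45). All 6 macrophage markers had a log2 fold change below 0, as did all 5 endothelial markers and 4 of 5 hepatocyte markers. Of all tested genes 48.2% were above 0, and these directions were not tested. The macrophage median was -0.24, and the summed macrophage level gave an exact permutation p of 0.914. That sum was 1980 in AF1 peptide replicate 1, against 4605 to 4840 in the other AF1 peptide mice and 4046 to 4855 in controls. Dcn, a matrix gene of stellate cells, was at 1771 ± 256 in controls and 1342 ± 303 with AF1 peptide (SD, n = 4, log2 fold change -0.42, exact permutation p = 0.0857, limma adjusted p = 0.763), and lost the call without the intensity trend, with the replicate block, and in 4 of 8 fits that left out a mouse (control replicates 1, 2, and 4 and AF1 peptide replicate 2). The other stellate cell markers lay on both sides of 0: Reln (0.19), Col1a1 (0.07), and Des (0.04) had log2 fold changes above 0 and Lrat (-0.10) below, the median of the 5 was 0.04, and their summed level was 3349 to 4397 in controls and 2619 to 4859 with AF1 peptide (exact permutation p = 0.914). In the other marker lists, Apoa1 (-0.41), Lck (-0.46), and Lyve1 (-0.29) had the smallest p values of their lists, and none was under 0.05. Without control replicate 1 (-0.41) or AF1 peptide replicate 3 (-0.41) the unadjusted limma p of Lyve1 came under it. The T cell list was mixed, with Cd8a (0.84) and Cd3e (0.32) above 0 beside Lck, Cd4 (-0.21), and Cd3g (-0.18) below, and its summed level gave an exact permutation p of 0.80.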
